A study of Mus musculus with 3 samples.

Results

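The TREM receptors and their adaptors were described across the immune cells of mouse melanoma grafts. The 8 genes were chosen by name: Trem1, Trem2, Trem3, Treml1, Treml2, Treml4 and the adaptors Tyrobp and Hcst. All 8 were found by symbol among the 55401 genes listed. Mice 4, 12 or 20 months old were given 500000 YUMM1.7 cells, a melanoma line of mouse origin, under the skin, and tumours were taken on day 18. Live leukocytes positive for CD45 were sorted and a 3′ single-cell library was made by PIP-seq, which partitions cells in droplets without a microfluidic chip. All groups carried the same graft, the labels name 7 mice per age, and they give no treatment, sex, strain or allele of the hosts. They call the cell type melanoma, although the sort took CD45+ cells. There was 1 library per age, so no test between ages was possible, and nothing states whether or how the cells of the 7 mice were pooled. The series title asks how age relates to macrophages bearing Trem1 or Trem2 in melanoma.

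TREM receptors are single-pass surface proteins with an immunoglobulin-like domain, found mainly on myeloid cells. Most have short tails and signal through Tyrobp (DAP12), whose activation motif recruits the kinase Syk. Hcst (DAP10) carries a different motif that recruits phosphoinositide 3-kinase, and it is best known as the partner of the lymphocyte receptor NKG2D. Trem2 binds lipids and lipoproteins and marks lipid-handling macrophages, whereas Trem1 amplifies inflammatory responses of monocytes and neutrophils. Treml1 is a platelet protein with an inhibitory motif.

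The 6 receptor genes lie side by side on the plus strand of chromosome 17 (GRCm38, GENCODE M21), in the order Trem1, Trem3, Treml4, Treml2, Trem2 and Treml1, over 134409 bases. Trem1 spans chr17:48232768-48246924 and Trem2 chr17:48346401-48354147. Trem1 and Trem3 are 852 bases apart, and Trem1 overlaps the annotated gene AC241601.2. Tyrobp and Hcst face each other tail to tail on chromosome 7 (Tyrobp at chr7:30413760-30417585), with 126 bases between their ends. Whether strand was used in counting is not given in the sources used here, so reads of such close or overlapping genes could be split between them.

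Of the 8 genes, 5 had a promoter in RefSeq (GRCm38.p6), and the 250 bases before the start of Trem1, Treml4 and Trem2 are shown because these neighbouring receptors had different orders of level over the myeloid classes. Capitals mark GAGGAA, the core of sites of the myeloid factor PU.1, on either strand. They also mark TGANTCA, a pattern wider than the AP-1 consensus TGA(G/C)TCA. All 3 lie on the plus strand, Trem1 at chr17:48232489-48232738, Treml4 at chr17:48264045-48264294 and Trem2 at chr17:48346151-48346400.
Trem1: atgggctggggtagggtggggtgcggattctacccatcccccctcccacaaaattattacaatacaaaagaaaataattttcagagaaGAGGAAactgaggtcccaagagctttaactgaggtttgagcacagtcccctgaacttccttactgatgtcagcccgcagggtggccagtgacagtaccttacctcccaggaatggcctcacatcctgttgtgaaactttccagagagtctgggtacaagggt
Treml4: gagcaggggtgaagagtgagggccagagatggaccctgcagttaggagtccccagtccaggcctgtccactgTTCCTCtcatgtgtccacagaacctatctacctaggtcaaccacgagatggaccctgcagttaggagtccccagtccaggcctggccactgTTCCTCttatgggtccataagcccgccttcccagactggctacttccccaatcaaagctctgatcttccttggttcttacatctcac
Trem2: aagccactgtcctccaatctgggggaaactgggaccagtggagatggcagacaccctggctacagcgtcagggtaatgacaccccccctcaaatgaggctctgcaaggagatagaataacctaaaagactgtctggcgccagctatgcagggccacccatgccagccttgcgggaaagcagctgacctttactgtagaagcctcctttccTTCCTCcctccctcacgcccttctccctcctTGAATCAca
The PU.1 letters occurred 1 time before Trem1, 2 times before Treml4 and 1 time before Trem2, and 23.3% of 32851 promoters of this length held them. Only Trem2 among the 5 also held TGANTCA, 9 bases before its start, as did 6.75% of all promoters. Its letters were TGAATCA, whose middle A lies outside the AP-1 consensus. C/EBP letters (TTGNNNAA, in 33.3% of promoters) were found in Trem1, Treml4 and Hcst, and NF-kB letters (in 17.6%) in none of the 5. The promoters of Hcst and Treml1 held neither the PU.1 letters nor TGANTCA. These matches describe the letters only, and both strands were searched.

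In order of age, 14393, 14653 and 14684 cells were deposited, with median counts per cell of 6789, 7411 and 6936. After filtering, 41105 cells were retained. Between 2 and 4 cell barcodes were shared by any pair of libraries. Cells were clustered without the 8 genes and classes were named from marker genes, with "-like" for a name that rests on markers alone. Of 14 named classes with at least 50 cells, 13 were immune, as the CD45 sort would select, and 1 was fibroblast-like with 127 cells. Levels are in CPM, the counts of a gene summed over the cells of a class, per 1000000 counts of all genes in those cells. The kit reads 3′ ends, so levels are compared between cells for 1 gene and not between genes. All intervals are 95% intervals of counting error only.

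Trem2, the lipid receptor, was highest in C1q macrophage-like cells. There it measured 77.6, 102 and 134 CPM at 4, 12 and 20 months, and its interval lay above that of the next class in all 3 libraries. These cells made up 11.1% of retained cells and held 47.5% of all Trem2 counts. Classical monocyte-like cells followed at 33.5, 42.4 and 62.5 CPM, activated monocyte-like cells at 27.1, 33.3 and 53.7, and nonclassical monocyte-like cells at 20.8, 31.4 and 38.5. The order of these 3 classes did not hold beyond their intervals in any library. Dendritic cells, whether type 1, type 2, mature or plasmacytoid, were far lower, between 2.14 and 11.1 CPM. T-like cells, which are not known to use Trem2, measured 3.96, 5.94 and 9.38 CPM, so the dendritic values were near the level found in lymphocytes.

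Trem1, the amplifier of inflammation, had another order. Among classes of at least 50 cells it was highest in nonclassical monocyte-like cells (89.3, 74.6 and 73.1 CPM) and classical monocyte-like cells (62.7, 81.7 and 69.2), which were apart beyond their intervals in 1 of 3 libraries. Classical monocyte-like cells held 45.2% of Trem1 counts. C1q macrophage-like cells, which led for Trem2, measured only 17.4, 11.5 and 12.1 CPM of Trem1. Activated monocyte-like cells lay between, at 28.1 to 29.6 CPM, and T-like cells at 2.55 to 2.73 CPM. A neutrophil-like cluster of 24 cells was higher than all of these, at 494, 190 and 151 CPM on 26, 17 and 8 counts.

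Trem3, an activating receptor of mice, and Treml4, known from Ly6C-low monocytes, were both highest in nonclassical monocyte-like cells among classes of at least 50 cells, and their intervals lay above those of the next such class in all 3 libraries. Trem3 measured 185, 151 and 119 CPM there, against 52.4 to 59.6 in classical monocyte-like cells. The neutrophil-like cluster was higher still, at 266, 347 and 453 CPM on 14, 31 and 24 counts. Treml4 measured 463, 346 and 279 CPM in nonclassical monocyte-like cells, and no other named class of at least 50 cells passed 75.3 CPM. Both genes were lowest at 20 months and highest at 4 months in nonclassical monocyte-like cells, which numbered 138, 70 and 77 at 4, 12 and 20 months. Trem3 and Treml4 followed each other over 14 classes and 3 libraries, with a Pearson r of 0.956 over 42 points of log2(CPM + 10), and Adgre4, itself a marker used to name nonclassical monocytes, followed both (0.954 and 0.951). These points share libraries and depth, and the correlations are descriptions.

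Treml2 was the one receptor spread over both lineages. Its highest class was plasmacytoid dendritic cell-like cells, at 86.8, 64.6 and 78.8 CPM, followed by activated and classical monocyte-like, type 2 and type 1 dendritic cell-like cells, between 40.4 and 64.5 CPM, with few neighbours apart beyond their intervals. Mature dendritic cell-like cells were low, at 6.77, 6.87 and 7.07 CPM, near the level of regulatory T-like cells (6.53 to 7.53). Within lymphocytes the gene was uneven. A CD8 T-like cluster led by Dapl1 and Ccr7, genes of resting T cells, measured 48.3, 44.4 and 37.8 CPM, and an unnamed lymphoid cluster led by the Ly49 gene Klra6 measured 51.5, 48.8 and 44.5. A CD8 T-like cluster led by Ccl3 and Pdcd1, genes of stimulated T cells, measured 6.73, 5.90 and 10.4. The gene whose pattern was most like that of Treml2 was Pik3ap1, an adaptor of phosphoinositide 3-kinase (r of 0.915).

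Treml1, the platelet receptor, was barely detected. The deposited libraries held 6, 3 and 19 counts in all, and no class of at least 50 cells passed 0.295 CPM. In C1q macrophage-like cells there were 1, 2 and 6 counts.

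The adaptor Tyrobp was highest in nonclassical and classical monocyte-like and in NK-like cells among classes of at least 50 cells. Nonclassical monocyte-like cells measured 2689, 2673 and 2681 CPM, classical monocyte-like cells 2745, 2567 and 2563, and NK-like cells 2786, 2583 and 2412. Activated monocyte-like cells, at 2205, 2016 and 1983, and C1q macrophage-like cells, at 2078, 1894 and 2018, were lower. Dendritic cells split, with 1925 to 2169 CPM in plasmacytoid, 1492 to 1730 in type 2, 695 to 762 in mature and 538 to 772 in type 1 cells. The T-like classes with at least 50 cells lay between 191 and 363 CPM and fibroblast-like cells at 221 to 315. The part that free RNA has in these levels was not tested. Fcer1g, the other common adaptor of myeloid activating receptors, was the gene most like Tyrobp (r of 0.928). Hcst ran the other way. It was highest in CD8 T-like cells at 683, 685 and 728 CPM, with 460, 458 and 468 in NK-like cells, and between 76.3 and 160 in the myeloid classes. Thy1, a T cell surface protein, was most like it (r of 0.949).

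**Figure D1:**
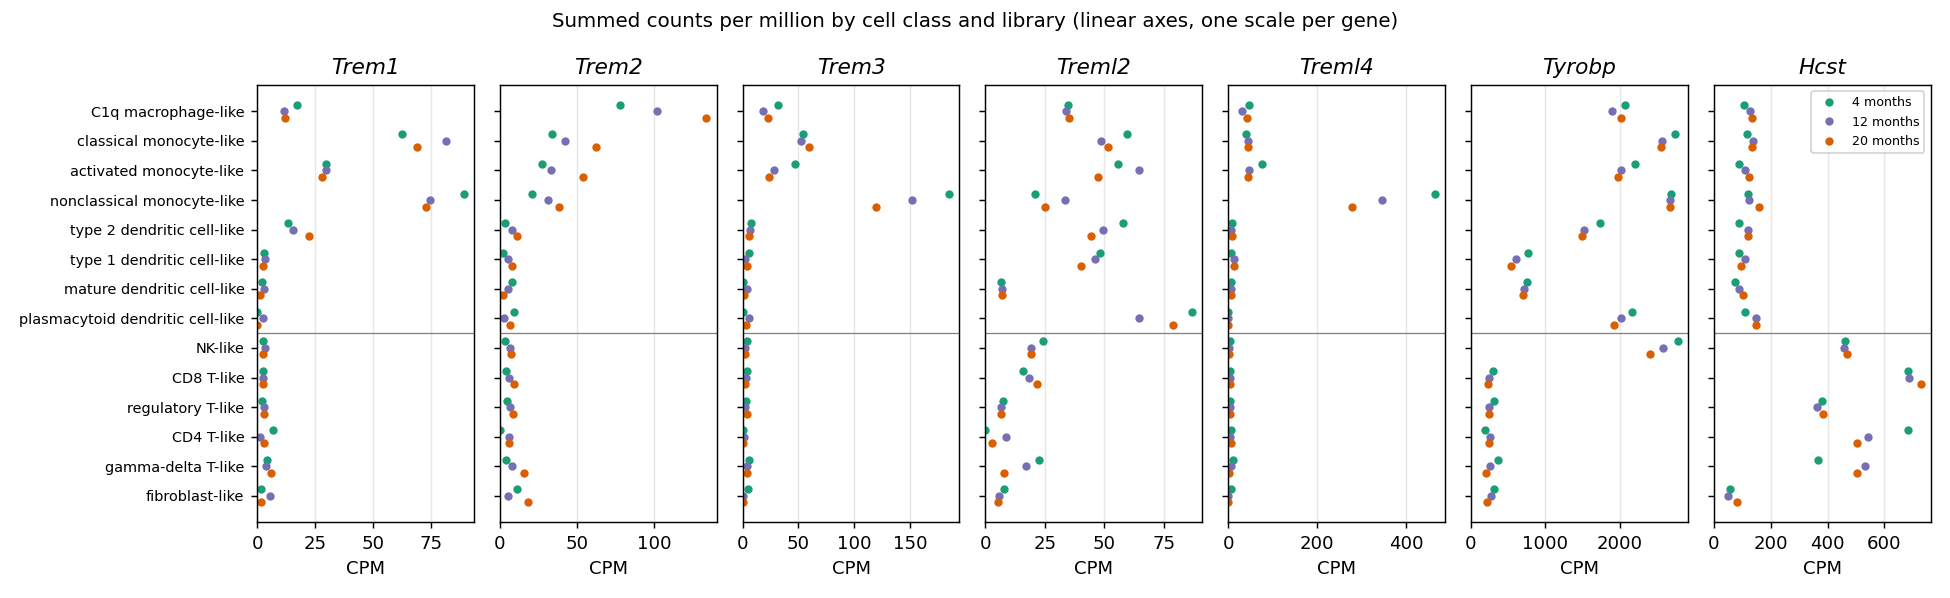
Level in CPM of 7 of the 8 genes (Treml1 is near 0 and left out) in 14 cell classes, 1 point per library coloured by age, on linear axes with a scale per gene, with myeloid classes above the line. Trem2 peaks in C1q macrophage-like cells, Trem3 and Treml4 in nonclassical monocyte-like cells, and Hcst in CD8 T-like cells, while Tyrobp is high in monocyte and NK-like classes alike.

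Over the classes, Apoe, the lipoprotein that Trem2 binds, had the pattern most like that of Trem2 (r of 0.938), followed by Clec4a2, Adgre1, C3ar1 and Fcgr2b. Apoe and Adgre1 are also markers by which the macrophage class was named. The gene most like Trem1 was Gm9733 (0.986), likewise a marker of the classical monocyte class, followed by Emilin2, Lyz2, Gda and Krt80. Apoc2 was the gene most like Trem3 (0.963). No p is given for these, since each gene was picked as the highest of 7588 compared.

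Trem2 was lowest at 4 and highest at 20 months in each of the 4 monocyte and macrophage classes. In the small nonclassical class both intervals of the ratio included 0, as did that of activated monocyte-like cells at 12 months. In C1q macrophage-like cells the log2 ratios to the 4-month library were 0.39 (interval 0.26 to 0.52) for 12 and 0.78 (0.67 to 0.90) for 20 months. The share of these cells with a Trem2 count, every cell thinned to 3500 counts, was 18.2%, 24.8% and 29.4%, against 1.53%, 2.22% and 3.09% of CD8 T-like cells (30.5%, 41.9% and 49.95% against 2.40%, 4.33% and 6.20% without thinning). In sums over a class, more cells with the gene and more of its RNA per cell cannot be told apart. Classical monocyte-like cells had ratios of 0.34 (0.14 to 0.53) and 0.90 (0.73 to 1.07). The low level in CD8 T-like cells moved too, from 3.87 to 5.86 and 9.39 CPM, and the part that free RNA has in it was not tested. With the T-like level taken off, the ratios in C1q macrophage-like cells were 0.38 and 0.75.

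The age difference was uneven among the macrophage clusters and others that bore C1q. The cluster led by Pf4, Ccl8 and Vcam1, genes of tissue-resident-type macrophages, had the highest Trem2 of the large clusters and the smallest change, at 140, 149 and 175 CPM with log2 ratios of 0.10 and 0.33. The cluster led by Tmem119 and C1q genes started lower and differed more, at 50.3, 74.6 and 105 CPM with ratios of 0.57 and 1.07. Of 2 clusters that bore C1q but kept no name, because their markers scored nearly as high for a second class, the one led by Il1b and Cxcl2 measured 38.9, 58.5 and 88.2 CPM. The one led by the interferon-induced chemokines Cxcl11 and Cxcl9 measured 29.9, 42.1 and 70.4. Its marker score was highest for activated monocytes (0.534), with C1q macrophages second (0.491). At 20 months the log2 ratios of these 2 unnamed clusters were 1.18 and 1.24. A cluster of only 38 cells led by Mmp12, Lpl and Spp1 reached 183, 437 and 309 CPM on 41, 66 and 20 counts.

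The cells of the Pf4-led cluster numbered 336, 428 and 793, of 1147, 1279 and 2144 C1q macrophage-like cells. Myeloid cells with at least 10 counts of C1qa, C1qb and C1qc together were also grouped by the share of C1q in their counts, a choice made after the data had been seen. In the lowest group, with up to 0.5% C1q, Trem2 measured 33.4, 49.2 and 67.4 CPM. In the middle group (0.5 to 1%) it measured 45.3, 77.8 and 111, and in the next (1 to 2%) 80.6, 107 and 133. Trem2 was thus higher with more C1q at every age and higher with age in each of these 3 groups. Above 2% there were only 29, 20 and 52 cells, with 185, 161 and 214 CPM on 37, 27 and 88 counts, and the intervals of both ratios there included 0.

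**Figure D2:**
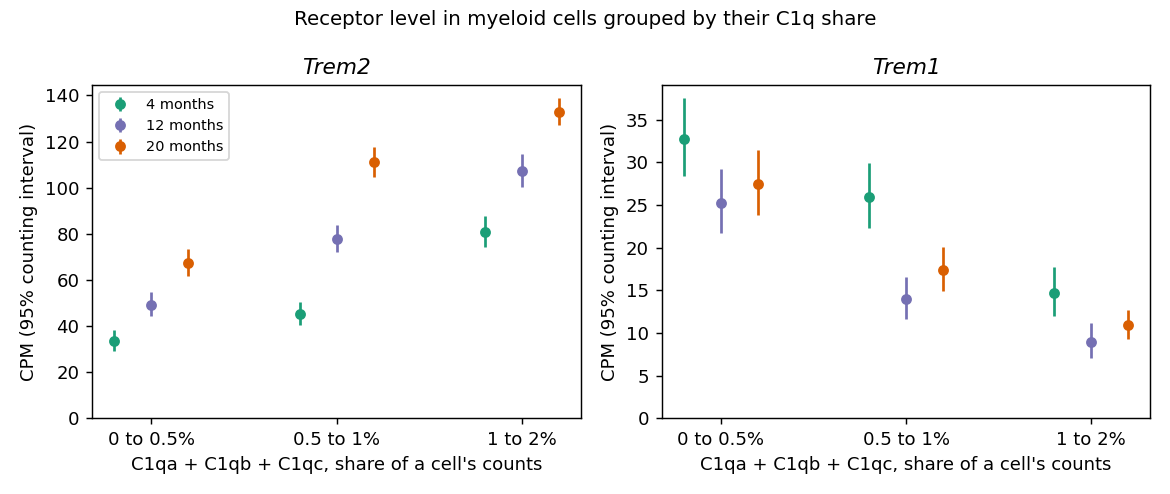
Level in CPM of Trem2 and Trem1 with 95% counting intervals in myeloid cells with at least 10 C1q counts, grouped by the share of C1q in a cell's counts (x axis), 1 point per library coloured by age. Trem2 climbs from left to right and with age, from 33.4 to 133 CPM, and Trem1 declines from left to right.

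Trem1 did not share this direction. In C1q macrophage-like cells it was lower in the older libraries, with log2 ratios of -0.60 (-0.92 to -0.28) at 12 and -0.53 (-0.81 to -0.24) at 20 months, at levels under 20 CPM. In classical monocyte-like cells it was higher, at 0.38 (0.24 to 0.52) and 0.14 (0.00 to 0.29), or 0.61 and 0.46 with doublets kept, where fewer cells fell in the class. The monocyte clusters differed among themselves. The cluster led by F13a1 and Fn1 measured 69.6, 119 and 115 CPM, the one led by Slpi, Vcan and Thbs1 69.9, 101 and 82.1, and the one led by Arg1 34.9, 27.6 and 27.6. Trem1 was lower in the Arg1-led cells than in the other 2 monocyte clusters in all 3 libraries, and in the Arg1-led cells the intervals of both ratios, -0.34 and -0.34, included 0. In the 3 lower C1q groups Trem1 was below its 4-month level at both later ages, with log2 ratios from -0.89 to -0.25, and the interval of the smallest included 0.

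Trem3 and Treml4 also went down in part of the myeloid cells. In C1q macrophage-like cells Trem3 measured 32.0, 18.1 and 22.4 CPM, with log2 ratios of -0.83 (-1.07 to -0.58) and -0.52 (-0.72 to -0.31). Treml4 measured 45.9, 30.9 and 43.5 there, lower at 12 months (-0.57), while the interval at 20 months included 0. In nonclassical monocyte-like cells Treml4 had ratios of -0.42 (-0.69 to -0.16) and -0.73 (-1.02 to -0.45). No cluster received that name at clustering resolution 0.5. Classical monocyte-like cells showed Trem3 at 54.0, 52.4 and 59.6 CPM, with both intervals of its ratio including 0.

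**Figure D3:**
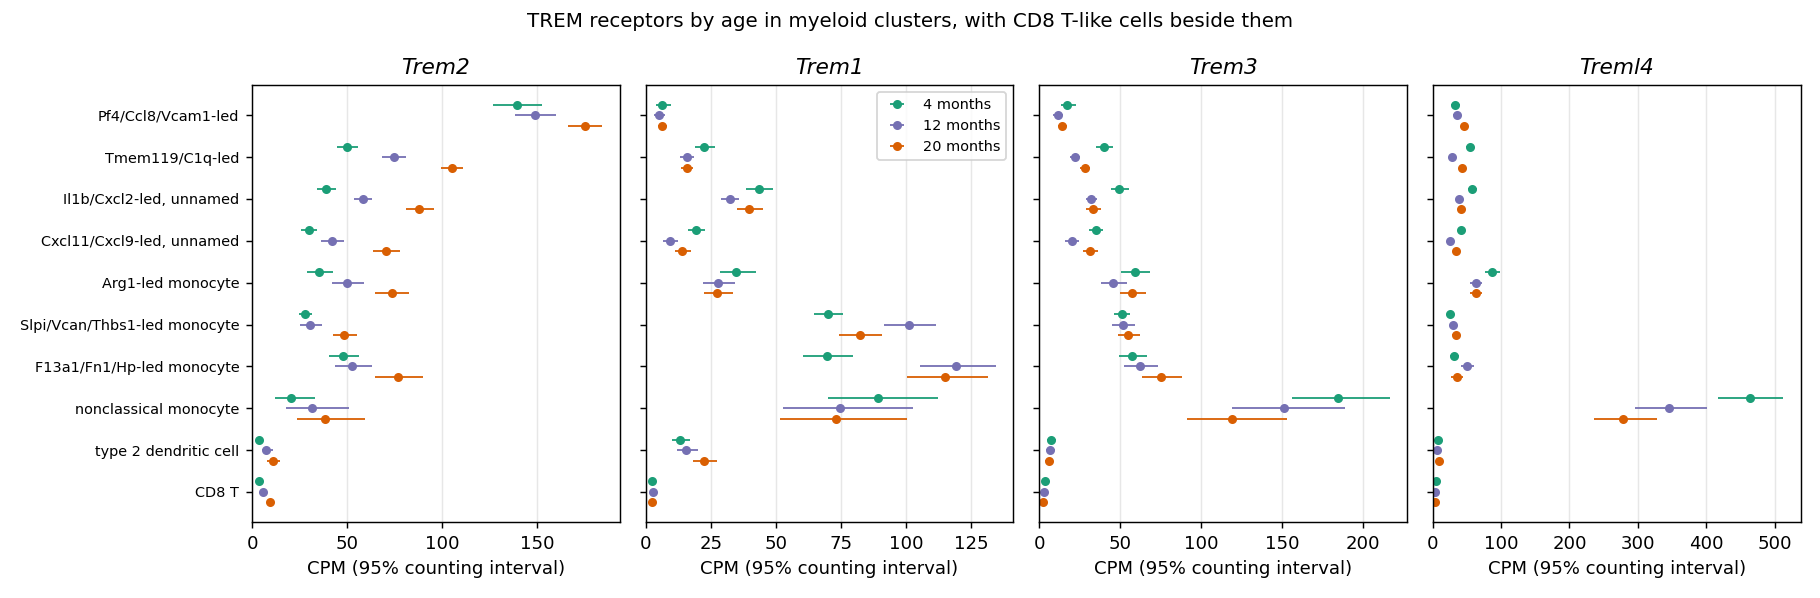
Level in CPM of 4 receptors with 95% counting intervals in 9 myeloid clusters, named by leading genes or class, and in CD8 T-like cells, 1 point per library coloured by age. Trem2 rises in order of age in the macrophage, monocyte and unnamed clusters and is least spread in the Pf4-led cluster relative to its level. Trem1 is higher at the later ages in 2 monocyte clusters. It is lower in the Tmem119-led macrophage cluster and in the 2 unnamed clusters.

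Among the adaptors, Tyrobp in C1q macrophage-like cells had log2 ratios of -0.13 (-0.16 to -0.11) and -0.04 (-0.07 to -0.02). The second of these turned to 0.01 with either another scaling or the T-like level taken off. In NK-like cells it was lower at both ages, at -0.11 (-0.13 to -0.09) and -0.21 (-0.23 to -0.19). Its low level in CD8 T-like cells, 304, 248 and 233 CPM, had ratios of -0.30 and -0.38. Hcst in CD8 T-like cells was 0.01 (-0.02 to 0.03) and 0.09 (0.06 to 0.12). Within the CD8 T-like clusters it was above its 4-month level at 20 months in all but the smallest, of 108 cells, for example 576, 623 and 725 CPM in the Dapl1-led and 706, 767 and 804 in the Ccl3-led cluster. In C1q macrophage-like cells Hcst, at 106, 127 and 136 CPM, was higher at the later ages (0.25 and 0.35), with T-like cells at 630, 645 and 694 CPM, whose part was not tested. Treml2 in CD8 T-like cells measured 15.7, 18.5 and 21.6 CPM, with ratios of 0.24 and 0.46 that came to 0.086 and 0.058 with doublets kept and to 0.10 and 0.092 at clustering resolution 0.5. Within the Dapl1-led cluster it was lower at 20 months, with log2 ratios of -0.12 (-0.41 to 0.18) and -0.35 (-0.63 to -0.07). That cluster had 429, 1011 and 1949 of the 3585, 4991 and 5310 CD8 T-like cells.

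Members past 1.5-fold were counted beside all genes. Of the 6 members at 20 CPM or more in C1q macrophage-like cells, 0 were higher and 1 (Trem3) lower at 12 months, where 1.99% of 6179 genes were higher and 0.631% lower. At 20 months 1 (Trem2) was higher and 0 lower, where 1.15% were higher and 0.777% lower. In classical monocyte-like cells, of 7 members, 0 passed in either direction at 12 months, where 2.31% of 6022 genes were higher and 0.747% lower. At 20 months Trem2 alone was higher, where 1.48% were higher and 0.963% lower. In the small nonclassical monocyte-like class, of 7 members, 2 (Trem2 and Treml2) were higher and 0 lower at 12 months, where 8.99% of 6226 genes were higher and 8.67% lower. At 20 months 1 (Trem2) was higher and 2 (Trem3 and Treml4) lower, where 8.72% were higher and 9.03% lower. Of these only the intervals of Trem3 and Treml4 left out 0. The median log2 ratio of all genes in these comparisons lay between -0.05 and 0.04. Both later ages are set against the same 4-month library.

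The genes around the receptors were counted from 8 lists of 103 genes (adaptors, signalling, inhibitors, shedding enzymes, ligands, Tyrobp partners, Trem2-associated and Trem1-associated genes). These lists were chosen with earlier results of these data known. Of 77 measured at 20 CPM or more in C1q macrophage-like cells, 4 were higher and 1 lower at 12 months, and 3 higher and 5 lower at 20 months. Of all genes there, 1.99% were higher and 0.631% lower at 12 months, and 1.15% and 0.777% at 20 months. The listed genes had median log2 ratios of -0.05 and -0.05. The kinase Syk (52.2, 51.3 and 54.9 CPM), Plcg2 (59.1, 58.8 and 53.1) and the sheddases Adam10 (50.4, 48.5 and 49.3) and Adam17 (84.7, 95.5 and 95.6) all stayed within 1.5-fold. Apoe measured 2962, 4426 and 5286 CPM, with T-like cells at 134, 228 and 330. Its log2 ratio was 0.58 at 12 and 0.84 at 20 months. Apoe was higher in lymphocytes as well, at 124, 227 and 334 CPM in NK-like cells, and the part of free RNA was not tested. Fcer1g measured 4092, 3657 and 3769 CPM.

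Genes past 1.5-fold at both ages in C1q macrophage-like cells were Lat, higher, and Klra8, lower, and both are lymphocyte genes. Lat, an adaptor of T cell receptor signalling, measured 42.4, 80.6 and 65.9 CPM against 515, 520 and 485 in T-like cells. Klra8, an NK receptor that signals through Tyrobp, measured 55.5, 36.2 and 20.2 CPM, and T-like cells held nearly the same (56.6, 41.8 and 24.3). The part of lymphocyte RNA in either was not tested. Klrk1, which encodes NKG2D, measured 1382, 1331 and 1211 CPM in NK-like cells. Lgals3, which encodes a galectin of the ligand list, measured 601, 361 and 364 CPM in CD8 T-like cells.

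In classical monocyte-like cells 79 of the 103 genes were measured. Of these, 4 were higher and 1 lower at 12 months, and 3 higher and 5 lower at 20 months. Of all genes in the class, 2.31% were higher and 0.747% lower at 12 months, and 1.48% and 0.963% at 20 months. Among the listed genes Lat, Apoe and S100a8 were higher and Il6 lower at both ages. S100a8, a calcium-binding protein of neutrophils and monocytes, went from 13.7 to 65.4 and 66.8 CPM, with T-like cells at 7.60, 22.3 and 10.6. The cytokine gene Il6 went from 28.1 to 17.9 and 15.5 CPM. Apoe measured 730, 1126 and 1335 CPM. In nonclassical monocyte-like cells, with the shares of all genes given above, 3 of 78 listed genes were higher and 7 lower at 12 months, and 5 higher and 13 lower at 20 months. Those past 1.5-fold at both ages were Clec5a, higher (29.3, 47.1 and 52.0 CPM), and Klra4, Cxcl2 and the lipid droplet gene Plin2, lower. Plin2 measured 180, 114 and 106 CPM and Cxcl2 122, 68.8 and 57.7. The intervals of Clec5a included 0. The ligand Pglyrp1, which binds Trem1, measured 79.4, 81.2 and 56.7 CPM in classical monocyte-like cells and 369, 359 and 326 in NK-like cells.

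Cells with at least 10 counts of C1qa, C1qb and C1qc together were then taken singly, 2247, 2520 and 3636 at 4, 12 and 20 months. They were 42.1%, 44.2% and 53.3% C1q macrophage-like, 43.9%, 38.6% and 26.1% were unnamed myeloid cells, and 2.18%, 7.78% and 9.46% fell in the lymphocyte compartment. There were 83, 164 and 260 cells with 9 counts, just outside, and 67, 116 and 173 with 10. After thinning to 3500 counts, 312, 472 and 867 cells had a Trem2 count (13.9%, 18.7% and 23.8%), and 154, 112 and 180 had a Trem1 count (6.85%, 4.44% and 4.95%). Both receptors were seen in 17, 18 and 47 cells, where the product of the 2 shares gives 21.4, 20.98 and 42.9. In all 3 libraries that product lay within the exact binomial (Clopper-Pearson) interval of the share with both. That interval treats cells as replicates, which they are not, and the chosen cells mix clusters. In all cells of the C1q macrophage-like clusters both were seen in 9, 8 and 28, where the product gives 10.8, 12.9 and 26.4. In classical monocyte-like clusters the numbers were 37, 27 and 34 against 34.1, 23.7 and 42.9. Whether the 2 receptors share cells was not tested. T-like cells had a median of 2, 3 and 3 C1q counts, against 58, 63 and 66 in the cells chosen.

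A gene was said to go with a receptor when the cells with a count differed from those without by 1.5-fold or more in all 3 libraries. With Trem2, 40 of 9917 genes were higher (0.403%) and 18 lower (0.182%). The chemokine gene Pf4 had log2 ratios of 2.82, 2.30 and 1.65 at 4, 12 and 20 months, and the mannose receptor Mrc1 1.90, 1.46 and 1.44. Olfml3 had 1.67, 1.53 and 1.16, and the chemokine gene Ccl8 3.28, 2.23 and 1.10. For both chemokine genes the ratio was smallest in the 20-month library and largest in the 4-month library. Ptgs1, a prostaglandin synthase, had 2.09, 1.09 and 1.24. The transcription factor Maf, the selenium carrier Selenop, the chemokine gene Ccl7 and the potassium channel Kcnk13 lay between 0.88 and 1.45 in every library.

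Lipid genes were among them. Lpl, which releases fatty acids from lipoproteins, had 1.87, 2.12 and 0.91 and the fatty acid transporter Cd36 0.87, 1.35 and 1.28. However, 23.7% of the counts of Lpl and 32.0% of those of Cd36 came from 10 cells, as did 20.1% for Ccl8. Lpl and Cd36 were also leading genes of the Mmp12-led cluster of 38 cells, whose part in these ratios was not tested. The Trem2-associated list was chosen with earlier results of these data known. Of its 18 measured genes 3 were higher, Lpl, Cd63 and the cholesterol exporter Abca1. The list had a median log2 ratio of 0.36 against -0.003 for all genes, and the part of the cluster mix in this was not tested. The ligand Apoe had 1.14, 1.07 and 0.74. Spp1 of the same list had 0.06, 0.63 and -0.23, and Fabp5 0.01, 0.14 and 0.28. Tyrobp differed little between cells with and without Trem2, at 0.05, 0.09 and 0.10.

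With Trem1, 64 genes were higher (0.645%) and 57 lower (0.575%). Arg1, which breaks down arginine, had log2 ratios of 1.65, 2.13 and 1.73. Clec4e, a C-type lectin that senses damaged cells and mycobacteria, had 1.07, 1.64 and 1.66. The lactate exporter Slc16a3 had 1.19, 1.01 and 1.30. These 3 were ranked first. Vegfa, an angiogenic factor, had 1.41, 0.93 and 1.67, the cystine transporter Slc7a11 0.99, 1.32 and 0.92, and Pygl, an enzyme that breaks down glycogen, 1.14, 0.85 and 0.91. The lectin Mgl2, a marker used for type 2 dendritic cells, had 0.88, 1.93 and 1.72. Pogz, Rab11fip1, Serf1 and Xylt1 also ranked among the first 12, between 0.83 and 1.70.

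The list of inflammatory genes linked to Trem1 was chosen with earlier results of these data known. Of its 12 measured genes 6 were higher and 0 lower: Il1b, Cxcl2, Nlrp3, Ptgs2, Clec4e and S100a9. Clec4e was also a marker used to name activated monocytes. The median log2 ratio of that list was 0.64, against 0.01 for all genes. Il1b had 0.64, 0.60 and 1.15, and Nlrp3, the inflammasome sensor, 0.77, 0.76 and 0.64. Clec5a, another receptor that uses Tyrobp, had 0.62, 0.84 and 0.78, and Malt1 of the signalling list 0.68, 0.72 and 0.66. Trem3, the neighbour of Trem1 on the chromosome, had 0.29, 1.48 and 1.20. Tyrobp had 0.09, 0.08 and 0.21.

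Some genes, of which Cd63 and Cd81 were picked out after their values were seen, ran in opposite directions with the 2 receptors. Ccl8 was higher with Trem2 and lower with Trem1 (-1.51, -4.84 and -1.05). Olfml3 did the same (-1.02, -1.17 and -1.18), as did Pf4 (-0.92, -1.19 and -0.81), Cd63 (-1.04, -0.85 and -0.84) and Cd81 (-1.16, -0.64 and -1.04). The -4.84 of Ccl8, from 112 cells with Trem1 at 12 months, is set by a small constant added to every sum. It is not a measured fold. Hpgds, another prostaglandin synthase and likewise picked out later, was lower with Trem1 (-0.64, -1.08 and -1.10) and had 1.21, 0.78 and 0.48 with Trem2, the last of these under 1.5-fold. The C1q genes themselves, used to choose the cells, were higher with Trem2 and lower with Trem1 in every library. Cxcl2, a chemokine that draws neutrophils, was higher with both, at 0.88, 0.87 and 1.00 with Trem2 and 1.29, 0.95 and 1.53 with Trem1. Arg1 was higher with Trem1 in each library and measured 1.22, 0.52 and 0.93 with Trem2.

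**Figure D4:**
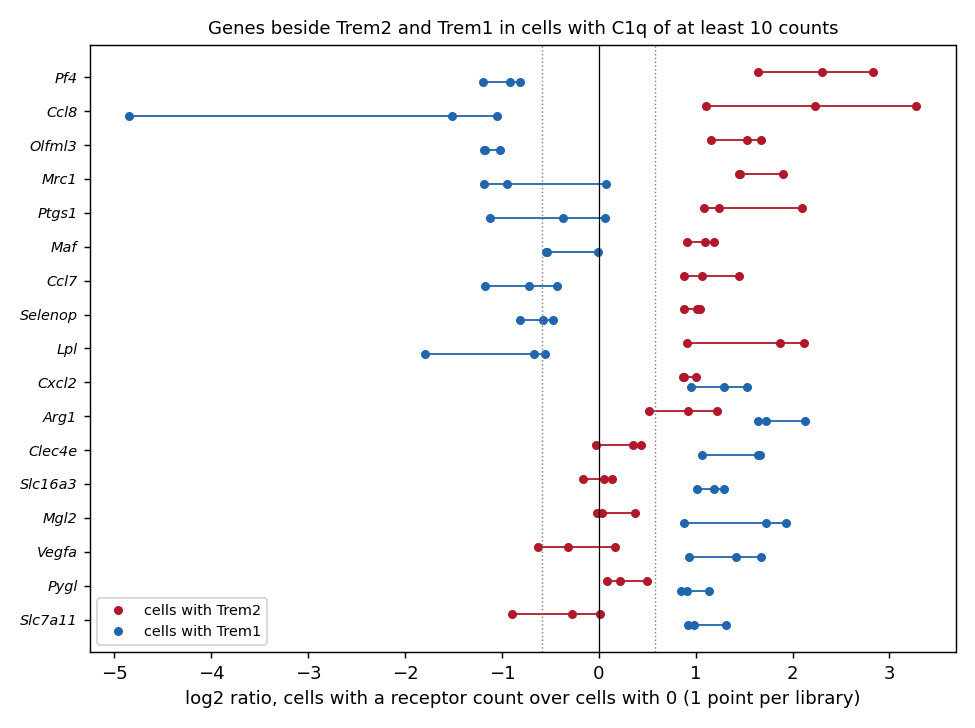
Log2 ratio of summed thinned counts in cells with a Trem2 (red) or Trem1 (blue) count over cells with none, 1 point per library and a line over their range, for 17 genes named in the text, with dotted lines at 1.5-fold. Pf4, Ccl8 and Olfml3 lie to the right for Trem2 and to the left for Trem1. The lowest point of Ccl8 is set by a small constant added to every sum. Clec4e, Slc16a3 and Pygl lie to the right for Trem1 and between the dotted lines for Trem2. Cxcl2 lies to the right for both.

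How far these gene lists hold differed. The cells were drawn to 2000 counts, required to have 20 C1q counts or 2 receptor counts, taken with doublets kept, or limited to C1q macrophage-like clusters. Under these 5 changes, 9 of the 40 genes higher with Trem2 passed 1.5-fold every time: Pf4, Ccl8, Olfml3, Mrc1, Ptgs1, Maf, Ccl7, Selenop and Dab2, an endocytic adaptor. Lpl and Abca1 passed under 4, Apoe under 3, and Cd36 and Cd63 under 2. With Trem1 none of the 64 passed under all 5, and Arg1, Mgl2, Clec4e, Cxcl2, Slc16a3, Pygl, Sh2b2, Cd14, Per1 and Il1b passed under 3. Nlrp3 and Ptgs2 passed under 2, and S100a9, Vegfa and Slc7a11 under 1. Drawing 2000 counts per cell in place of 3500 kept 19 of the 40 and 7 of the 64. Limiting the cells to C1q macrophage-like clusters kept 14 of the 40 and 5 of the 64. The part that the mix of clusters among the chosen cells has in these lists was not tested. Among genes lower with Trem1, Ccl8 and Hpgds passed under all 5. The 8 genes ranked lowest with Trem2 (Npy6r, Slc5a6, Ccl17, Sim1, Gm31135, Tbc1d4, Dop1a and Kmo) and with Trem1 (Fcrl5, Zfp229, Kazn, Gm4117, Dpp6, 2700049A03Rik, Smpd4 and Tpsb2) also varied. At 2000 counts 0 of the former and 1 of the latter passed, while Slc5a6 and Kmo passed under 4 of the 5 changes and Fcrl5 and Gm4117 under 3. From 10 cells came 59.7% of the counts of Npy6r and 73.9% of those of Zfp229. Sim1, Gm31135 and Tbc1d4 were leading genes of an unnamed cluster of the lymphocyte compartment. Ccl17 and Kmo were markers used for type 2 dendritic cells. Tpsb2 was a leading gene of a mast cell or basophil-like cluster of 44 cells. The part of other cell types among the chosen cells was not tested.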

How the data were processed

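The authors deposited 1 matrix of raw counts per library, unnormalized, with a gene and a cell for each value. STAR 2.7.10a and GRCm38 are named in the submitters' processing notes. How cells were called, the annotation, strand use, and whether molecules or reads were counted are not given in the sources used here. Of the listed gene identifiers 54349 (98.1%) occur in GENCODE M21.

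A cell was kept from 500 counts upward unless mitochondrial genes held over 15% of them. The 6% with the highest Scrublet score per library were removed. Scanpy 1.11.5 was used for 2000 variable genes without the 8 members, 30 principal components, 15 neighbours and Leiden clustering at resolution 1.0, and the myeloid and lymphoid compartments were clustered again. A class needed a marker score of at least 0.4 and 3 detected markers, no more markers of another class than its own among its 10 leading genes, and a margin of 0.05 over the second class. The margin, and the rule that clusters under 50 cells need a leading marker of their own, were set after clusters and member levels had been seen. The members, markers, lists and named-gene rule were chosen with earlier results of these data known.

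Counts were summed per class and library. Levels have exact Poisson intervals, ratios exact conditional binomial intervals and shares Clopper-Pearson intervals. There is 1 library per age, and no test was made. Counts of genes past 1.5-fold used genes at 20 CPM or more on average in a class, whereas ratios of the members are given at any level. Co-detection used cells thinned to 3500 counts, below the smallest cell (3555), and genes with 50 thinned counts per library. A small constant was added to each thinned sum before ratios between cells with and without a receptor count were taken. Named were, for each receptor, the 12 highest and 8 lowest genes by the library closest to 0, the genes most like each member over classes, and listed genes past 1.5-fold at both ages with 8 known partners. Other genes are named where a list or a count under several settings picked them, after their values were seen. Calculations were checked on simulated counts without a mix of clusters, with a receptor found in a larger share of cells than Trem1. That check does not show how many genes called with Trem1 arose by counting error.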

Additional observations from a re-analysis of the deposited data

Results flagged for a closer look

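2 members had age ratios on opposite sides of 0 in different classes, with the counting interval of each ratio on 1 side. The difference between classes was not tested, since there is 1 library per age. Trem1 had log2 ratios to 4 months of -0.60 at 12 and -0.53 at 20 months in C1q macrophage-like cells, and of 0.38 and 0.14 in classical monocyte-like cells. The lower end of the last interval was 1.3e-05. Clusters within these classes differed. In Arg1-led monocytes both ratios were below 0, with intervals that included 0. In the Pf4-led macrophage cluster 1.49%, 2.10% and 2.02% of thinned cells had a Trem1 count, in order of age. The level of Trem1 in C1q macrophage-like cells was below the 20 CPM asked of genes counted past 1.5-fold. Treml2 had -0.28 and -0.20 in classical monocyte-like cells and -0.34 and -0.32 in NK-like cells, against 0.24 and 0.46 in CD8 T-like cells. The latter came to 0.086 and 0.058 with doublets kept and 0.10 and 0.092 at resolution 0.5. Within the Dapl1-led cluster of CD8 T-like cells Treml2 had -0.12 and -0.35.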

How the results depend on the processing

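No paired analysis was possible because there is 1 library per age. Trem2 in C1q macrophage-like cells stayed higher at both ages when doublets, resolution, depth minimum, scaling, background or gate were changed, with log2 ratios from 0.38 to 0.48 at 12 and from 0.75 to 1.05 at 20 months. Keeping doublets gave 1.03 and second-step resolution 0.5 gave 1.05 at 20 months, and naming clusters without the margin, chosen after seeing the data, gave 0.97. These settings bring C1q-bearing clusters into the class. By C1q share, also chosen after seeing the data, it was 0.56 and 1.02 up to 0.5%, 0.78 and 1.29 at 0.5 to 1%, and -0.20 and 0.21 above 2%, where few cells lay. Tyrobp in C1q macrophage-like cells at 12 and 20 months was -0.17 and -0.10 with doublets, -0.16 and -0.074 at resolution 0.5, -0.091 and 0.010 with median-of-ratios scaling, -0.11 and 0.011 with the T-like level taken off, and -0.27 and -0.20 in all cells with at least 10 C1q counts, and at 20 months -0.072 without the margin. Trem1 in classical monocyte-like cells was 0.61 and 0.46 with doublets kept, where the class held fewer cells. Hcst in CD8 T-like cells was 0.12 and 0.20 at 5000 counts per cell or more, -0.045 and 0.039 with the macrophage level taken off, and at 20 months 0.20 with median-of-ratios scaling. Tyrobp in NK-like cells was -0.039 and -0.85 with the macrophage level taken off, which is a poor background here since macrophages use Tyrobp, and -0.14 at 20 months with the other scaling. Treml4 in classical monocyte-like cells turned to -0.11 at 12 months at resolution 0.5. Of 194 values of other age ratios, that 1 reversed and 18 left their interval. At resolution 0.5 no cluster was named nonclassical monocyte-like. The ratios of that class, with those of Trem3 and Treml4, therefore have no value at that setting.

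Genes higher with Trem2 numbered 23 at 20 C1q counts, 100 with 2 or more Trem2 counts against 0 and 20 within macrophage clusters, and those lower 77 with 2 or more counts, 28 with doublets kept and 8 within macrophage clusters. With 2 or more Trem1 counts, in 13, 9 and 16 cells, 794 genes were higher, and Zfp229, Dpp6, 2700049A03Rik and Smpd4 turned to 0.44, 0.018, 0.54 and 0.62. Leaving out genes with 50% or more of their counts in 10 cells kept 40 and 16 of the genes with Trem2 and 64 and 52 with Trem1. Depth limits the receptors: C1q macrophage-like cells held 176, 156 and 254 Trem1 counts. Where the cause of a change is not named, the cause was not tested.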
